A study of Mus musculus with 4 samples.

Results

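The genes described here are the mouse zinc finger protein genes whose symbol is Zfp followed by digits alone, leaving out Zfp36, which belongs to another family of RNA-binding proteins. A gene was taken when it had at least 50 deposited reads in each of the 4 libraries, so the members were selected on their read counts in these same libraries, and a gene that is low in 1 group only is not a member. Of 14435 genes in the table, 329 carry such a symbol, and 200 of them met the floor of 50. The cells were RAW264.7, a macrophage line derived from a mouse tumour, and every library came from cells exposed to E. coli lipopolysaccharide (LPS) for 12 h. The Control group held 2 libraries of cells given a nonspecific short hairpin RNA, and the shMettl3 group held 2 libraries of cells given a hairpin against Mettl3, the catalytic subunit of the enzyme that writes N6-methyladenosine on messenger RNA. One description of shMettl3 replicate 2 names METTL4, while its title and the study design name METTL3. No library without LPS was analysed here, so the values describe the hairpin in stimulated cells. Nothing in the labels names separate cultures for the replicates, and p-values below therefore measure only the spread between these libraries, which may be technical.

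Most Zfp genes encode proteins with tandem C2H2 zinc fingers, small zinc-bound loops that each read a few bases of DNA. Many also carry a KRAB box, which recruits the co-repressor Trim28 and, through it, the histone H3 lysine 9 methyltransferase Setdb1, and is known above all for the silencing of retrotransposons and imprinted loci. KRAB finger genes lie in clusters that arose by repeated gene duplication, so close relatives share sequence, while finger proteins without a KRAB box include activators, cofactors and proteins that act on RNA, ribosomes or ubiquitin.

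The libraries held between 16342313 and 17193639 reads assigned to genes, and between 12810 and 13323 genes had at least 1 read. Mettl3 itself was at 30.9 and 29.9 CPM (reads scaled to a common library size) in the Control libraries and at 11.5 and 11.2 CPM in the shMettl3 libraries. The knockdown thus went with the labels, with a log2 fold change of -1.42 and an SE of 0.10 (edgeR quasi-likelihood, Benjamini-Hochberg adjusted p = 1.58e-06). All 10 macrophage markers examined were above 1 CPM, and their summed level was 15988 and 16242 CPM in Control against 10120 and 10042 CPM in shMettl3. Fcgr1 and Spi1, named after their values were seen, did not pass the same test. Fcgr1 was at 79.4 and 49.9 CPM in Control and at 126 and 103 CPM in shMettl3, and Spi1 had a log2 fold change of -0.06. Each of the other macrophage markers fell at an adjusted p below 0.05. Fibroblast markers summed to at most 3.03 CPM in any library, lymphocyte markers to at most 0.115 CPM, and none of the 5 epithelial markers listed was among the genes analysed here. In bulk RNA, fewer cells of a kind and less RNA per cell cannot be told apart, and the part of the macrophage marker difference in the changes below was not tested.

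The Zfp genes were expressed at low levels. Their mean level over the 4 libraries had a median of 6.15 TPM (a level per transcript length), against 24.1 TPM for all tested genes that met the same floor. It ran from 0.845 TPM to 249 TPM, with 139 members below 10 TPM and 11 at 30 TPM or more. The 5 highest were Zfp207, Zfp91, Zfp513, Zfp330 and Zfp384. Zfp207, known as BuGZ for its binding of the spindle checkpoint protein Bub3, stood well above the rest at a mean of 249 TPM. Zfp91, a ubiquitin ligase of the non-canonical NF-kB pathway, followed at 53.5 TPM. Zfp513 was at 52.7 TPM, Zfp330, a nucleolar protein, at 49 TPM, and Zfp384, which binds runs of A and T, at 45.9 TPM. The deposited counts of 33 members were not whole numbers in every library, as happens when reads that fit several genes are shared out, and this is stated below for those that are named.

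Zfp genes changed in both directions in the Mettl3 knockdown libraries, and at this floor most differences among them were small. Of the 200 members, 32 rose and 21 fell at an adjusted p below 0.05 (edgeR's quasi-likelihood test, Benjamini-Hochberg over all 11035 tested genes), and 147 did not pass. That is 26.5% of the members, where 43.7% of all tested genes passed: 21.4% rose and 22.3% fell. Of the tested genes that met the same floor, 43.6% passed, with 20.9% risen and 22.7% fallen. The members' median log2 fold change was 0.06, against 0.01 over all tested genes, and it was 0.00 after the trend of each library with transcript GC content was removed. In 124 members, or 62% of them, the 2 groups did not overlap in CPM, against 73.4% of all tested genes. The change lay within 0.5 on the log2 scale in 175 members and reached 1 in 3, which were Zfp651, Zfp560 and Zfp580. The floor in every library also keeps out Zfp genes that are low in 1 group. Of the 87 tested Zfp genes below it, 17 had a change of at least 1, with values from -2.48 to 2.41. Not all of these 17 passed the test, and the median SE of the 87 was 0.28, against 0.13 for the members. Against a minimum change of 1.5-fold, 1 member rose (Zfp580) and 1 fell (Zfp651), where 8.63% of all tested genes passed. Without shMettl3 replicate 1, 20 members rose and 11 fell, where 13.5% of all tested genes rose and 14.3% fell in that fit. Under scaling by library size alone, which put the median of all genes at 0.11, 50 members rose and 16 fell, beside 29.6% and 16.6% of all tested genes.

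**Figure D1:**
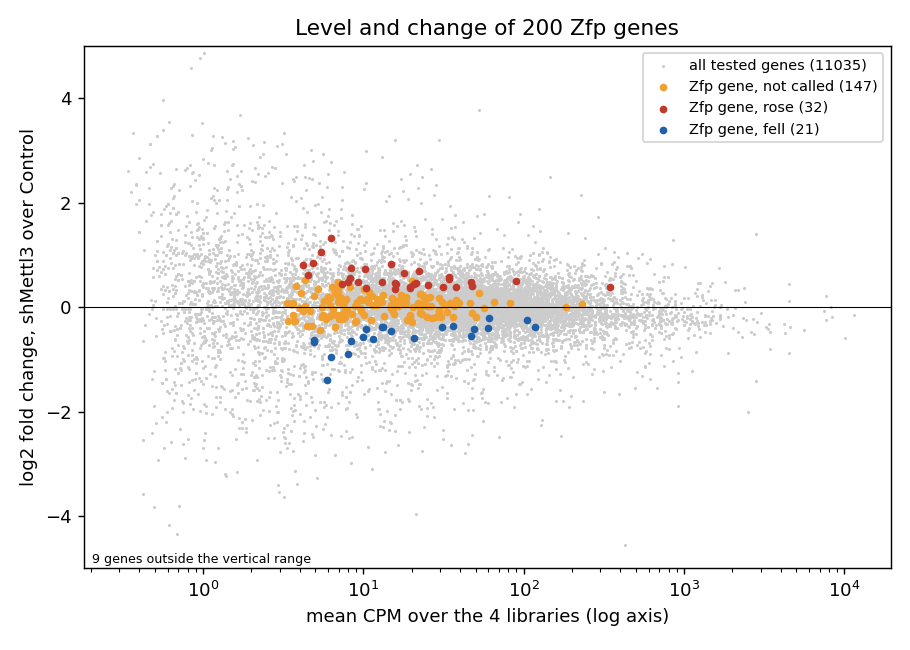
Mean CPM over the 4 libraries (horizontal, log axis) and log2 fold change of shMettl3 over Control (vertical) for all 11035 tested genes in grey and the 200 Zfp genes in colour, 1 point per gene. The Zfp genes sit between -1.39 and 1.31, with 147 not called between and around the 32 that rose and the 21 that fell; 9 other genes lie outside the vertical range.

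The members had fewer reads than most genes, and the share that passed the test is set beside that of genes at the same level. Among members with a mean count from 50 to below 150, 20% passed, against 31.3% of all genes that met the floor in that range. From 150 to below 300 the shares were 28.6% and 41%, and from 300 to below 600 they were 23.5% and 40.5%. At 600 reads or more, where 25 members lie, both shares were 48%. The smallest change that passed among members was 0.44 on the log2 scale in the lowest of these ranges and 0.20 in the highest, beside 0.36 and 0.18 for all genes at the floor. The standard error of a member's log2 fold change lay between 0.07 and 0.26.

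Zfp580 had the largest rise. Its reads numbered 59 and 60 in Control and 154 and 151 in shMettl3, or 3.55 and 3.62 CPM against 9.16 and 8.68 CPM. Both knockdown libraries were above both controls, and the log2 fold change was 1.31 (SE 0.16, adjusted p = 7.75e-05). It has 3 C2H2 fingers and no KRAB box. Zfp560, a KRAB finger gene with 15 fingers, came next at 3.85 and 3.25 CPM in Control against 8.27 and 6.49 CPM in shMettl3, a log2 fold change of 1.05 (SE 0.19, adjusted p = 0.00123). Zfp810, also a KRAB finger gene, stood at 3.55 and 3.43 CPM against 6.19 and 6.32 CPM, a log2 fold change of 0.84 (SE 0.18, adjusted p = 0.00276). Zfp202, a SCAN and KRAB protein known as a repressor of lipid metabolism genes, stood at 11.1 and 10.3 CPM against 18 and 20.2 CPM, and rose by 0.83 on the log2 scale (SE 0.12, adjusted p = 0.000213). Zfp691, which only just met the floor with 51 and 50 Control reads, had 86 and 96 reads in shMettl3 and a log2 fold change of 0.81 (SE 0.19). In each of these 5 genes the groups were apart.

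The other 7 of the 12 largest rises all belonged to KRAB finger genes. Zfp27, with 21 fingers, went from 6.14 and 6.33 CPM to 9.46 and 11.5 CPM (log2 fold change 0.75), and Zfp382 from 7.70 and 7.65 CPM to 13.1 and 12.3 CPM (0.72). Zfp426 rose by 0.68 and Zfp317 by 0.66 on the log2 scale. Zfp959 had a log2 fold change of 0.61 (SE 0.20, adjusted p = 0.0283), but its counts were not whole, so part of its reads were shared with other genes and its value is uncertain; it was not called once the GC trend was removed, nor without Control replicate 1 (adjusted p = 0.0687) or shMettl3 replicate 1 (adjusted p = 0.26). Zfp110, known as the neurotrophin receptor interacting factor that binds the receptor p75, went from 28.8 and 26.6 CPM to 39.1 and 42.9 CPM (0.57, SE 0.09, adjusted p = 0.000437). Zfp811 closed the group at 0.55, with an adjusted p of 0.0556 without shMettl3 replicate 1. Adjusted p-values throughout are those of edgeR (quasi-likelihood) with the Benjamini-Hochberg method across all tested genes.

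Zfp651 had the largest fall of all members. Known today as Zbtb47, a BTB domain finger gene, it had 141 and 145 reads in Control and 51 and 61 in shMettl3, or 8.49 and 8.74 CPM against 3.03 and 3.51 CPM. The fall came to a log2 fold change of -1.39 (SE 0.17, adjusted p = 7.35e-05), close in size to that of Mettl3. Zfp503, of the NLZ family of developmental regulators, stood at 8.79 and 7.65 CPM against 4.64 and 3.85 CPM, a log2 fold change of -0.95 (SE 0.17, adjusted p = 0.00108). Its closest relative Zfp703, singled out after its values were seen, went the other way, from 24.5 and 29.7 CPM to 37.3 and 33.3 CPM (0.38, SE 0.11, adjusted p = 0.0158). The call of Zfp703 was lost without Control replicate 1 (adjusted p = 0.0591) or shMettl3 replicate 1 (adjusted p = 0.128). Zfp970 fell by 0.89 on the log2 scale from 11.3 and 9.58 CPM to 5.71 and 5.52 CPM, with counts that were not whole, so that some of its reads could belong to a near copy.

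The next falls were those of Zfp661, a KRAB finger gene (log2 fold change -0.66), and Zfp839 (-0.65). Zfp341, which activates transcription of Stat3, was at 5.72 and 6.27 CPM in Control and 3.39 and 4.37 CPM in shMettl3 (-0.62, SE 0.19, adjusted p = 0.0209), and its adjusted p was 0.0535 without Control replicate 2 and 0.191 without shMettl3 replicate 1. Zfp692, which binds the AICAR response element of gluconeogenic genes, fell from 15.1 and 12.8 CPM to 8.75 and 9.48 CPM (-0.62, SE 0.13, adjusted p = 0.00314). Zfp318, known for its part in IgD expression by B cells, fell from 26.5 and 23.1 CPM to 17.3 and 15.7 CPM (-0.59). Zfp28 had a log2 fold change of -0.58 and Zfp263, a SCAN finger protein, one of -0.56, the latter from 61.7 and 50.3 CPM to 40.7 and 35.5 CPM. Zfp768, which binds an old family of interspersed repeats, had -0.45, and Zfp598 -0.43. Neither Zfp341 nor Zfp768 was called once the GC trend was removed (adjusted p = 0.0537 and 0.0531) or under DESeq2 (0.112 and 0.0516). The call was lost in 7 of 19 other settings for Zfp661 and 7 of 20 for Zfp28. Leaving out shMettl3 replicate 1 put the adjusted p at 0.0655 for Zfp839, 0.0985 for Zfp28 and 0.101 for Zfp768. It was 0.0541 for Zfp28 without Control replicate 2 and 0.0917 for Zfp661 without shMettl3 replicate 2. Of the 12 largest falls, the profile search described below found a KRAB box in Zfp970, Zfp661 and Zfp28 and not in the other 9.

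**Figure D2:**
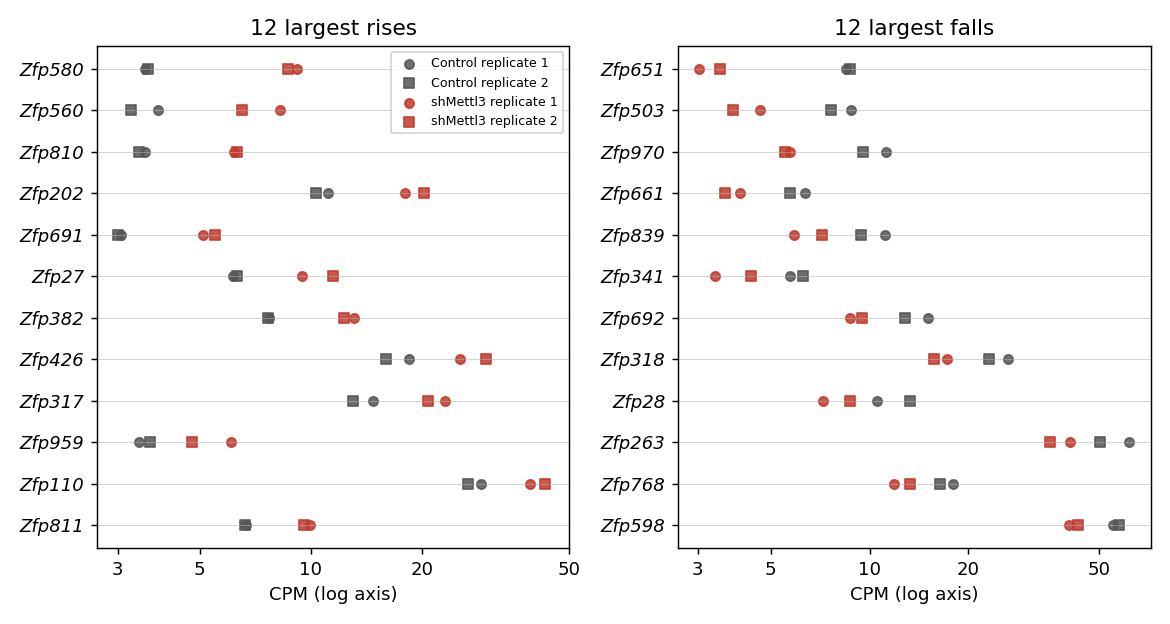
CPM of each library (horizontal, log axis) for the 12 largest rises and the 12 largest falls among the called Zfp genes whose groups do not overlap; grey marks are Control, red marks shMettl3, circles replicate 1 and squares replicate 2. In each gene both red marks lie on one side of both grey marks, as the choice of genes requires, from Zfp580 (log2 fold change 1.31) to Zfp811 (0.55) on the left and from Zfp651 (-1.39) to Zfp598 (-0.43) on the right.

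A list of 10 members was drawn up for known roles outside DNA binding, such as those in RNA, translation or ubiquitin. Zfp207 and Zfp638 are on it but are described here by other roles. Of the 10, 1 rose and 2 fell, where 21.4% of all tested genes rose and 22.3% fell. Zfp207 went from 312 and 286 CPM to 410 and 371 CPM, a log2 fold change of 0.38 (SE 0.08, adjusted p = 0.00253), which made the most abundant Zfp transcript one of those that rose. Its adjusted p was 0.063 without shMettl3 replicate 1. Zfp598, the ubiquitin ligase that marks collided ribosomes, was at 55.2 and 57.5 CPM in Control and 40.5 and 43.2 CPM in shMettl3 (-0.43, SE 0.08, adjusted p = 0.00102). Zfp638, which silences unintegrated retroviral DNA through the HUSH complex, was at 72.2 and 64.2 CPM against 50.7 and 52.1 CPM (-0.41, SE 0.08, adjusted p = 0.00188). Zfp91 was at 190 and 176 CPM against 185 and 183 CPM, groups that overlap, with a log2 fold change of 0.01 (SE 0.07). Zfp622, a factor of large ribosomal subunit maturation, had -0.19 (SE 0.08, adjusted p = 0.062), and Zfp451, a SUMO ligase, had 0.03 (SE 0.10).

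Members known for silencing or promoter control were counted together with only those members of the list above that are named there. These 15 were named for a textbook role, and 3 rose, 3 fell and 9 did not pass. That is 40%, beside 43.7% of all tested genes. Zfp809, which brings Trim28 to proviral DNA of murine leukaemia virus, had 12.3 and 12.7 CPM in Control and 13.9 and 13 CPM in shMettl3, a log2 fold change of 0.10 (SE 0.12). Zfp445, which protects imprinted methylation, had -0.03 (SE 0.08), and Zfp57, its better known partner in that task, was not among the genes analysed here. Zfp568, which represses the placental promoter of Igf2, rose from 16.8 and 17.5 CPM to 23.7 and 20.3 CPM (0.36, SE 0.11, adjusted p = 0.0209). Zfp281, a regulator of pluripotency genes, rose from 31.7 and 24.4 CPM to 42.1 and 39.4 CPM (0.54, SE 0.12, adjusted p = 0.00508). Zfp335, a cofactor needed in T cell development, had a log2 fold change of -0.20 (adjusted p = 0.0376), the smallest of any called member, and the call was lost in 12 of 20 other settings. The adjusted p without shMettl3 replicate 1 was 0.233 for Zfp568 and 0.203 for Zfp335, and for Zfp335 it was 0.217 without shMettl3 replicate 2. Zfp143, an activator of small nuclear RNA promoters, had 0.07, Zfp148 had 0.04 and Zfp407 had -0.13, none of them called. Zfp410, known as a dedicated activator of Chd4, had 0.02 (SE 0.10), and Chd4 itself had 0.00 (SE 0.07).

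Among KRAB finger genes more members rose than fell, and among the others more fell than rose, an order that held for the first class and turned for the second once the GC trend was removed. A profile of the KRAB A box found it in the translated coding sequence of 98 members, of which 19 rose and 4 fell, with a median log2 fold change of 0.11 and 66 values above 0. It was not found in 102 members, of which 13 rose and 17 fell, with a median of 0.02 and 56 values above 0. A gene whose box the profile missed would be counted among these. As shares, 23.5% of the first class and 29.4% of the second passed the test, against 43.6% of all tested genes at the same floor. Of those tested genes, 20.9% rose and 22.7% fell. Values above 0 made up 50.4% of them, 67.3% of the first class and 54.9% of the second. The difference between the classes was not tested. The KRAB members had a median of 12 C2H2 fingers and a median mean count of 134, against 7 fingers and 373 reads for the others, and over all members the fingers ran from 0 to 37, with no match to the finger pattern in Zfp330, Zfp503, Zfp703 and Zfp839. Another 28 genes with a KRAB box, under other names and at the same floor, had 3 rises, 5 falls and a median of -0.06. Without shMettl3 replicate 1, 11 KRAB members rose and 2 fell, and 9 of the others rose and 9 fell. The fit without shMettl3 replicate 2 also leaves a lone library in that group, and its counts are given only within the ranges at the end.

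The 2 classes also differ in base composition, and fold change moved with base composition in all genes. The median transcript GC content was 42.1% in KRAB members and 51.8% in the others. Over all tested genes at the floor, the median log2 fold change went from 0.16 below 40% GC through 0.12, 0.06, 0.02 and -0.06 to -0.13 at 56% or more. The members' medians in the same ranges were 0.19, 0.15, 0.05, 0.05, -0.05 and -0.09. Of all tested genes at the floor, 295 of 398 below 40% GC had a value above 0, and 615 of 888 from 40% to below 43%. With the GC trend of each library removed, 13 KRAB members rose and 9 fell, with a median of 0.02, and 21 of the others rose and 16 fell, with a median of -0.02, where 21.2% of all tested genes rose and 22.3% fell in that fit. The median of the KRAB class was thus 0.02 with the GC trend removed and 0.11 without that step. Within the same GC ranges as above, the KRAB members' medians were 0.22, 0.15, 0.04, 0.20, -0.01 and -0.12, the last from 3 members. The part of GC content in the difference between the classes was not tested. By library, the median deviation of KRAB members from their 4-library mean was 0.00 and -0.10 on the log2 scale in Control and 0.10 and 0.04 in shMettl3. For all genes under 43% GC it was 0.00 and -0.13 against 0.08 and 0.06, so Control replicate 1 lay between Control replicate 2 and the knockdown libraries in both.

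**Figure D3:**
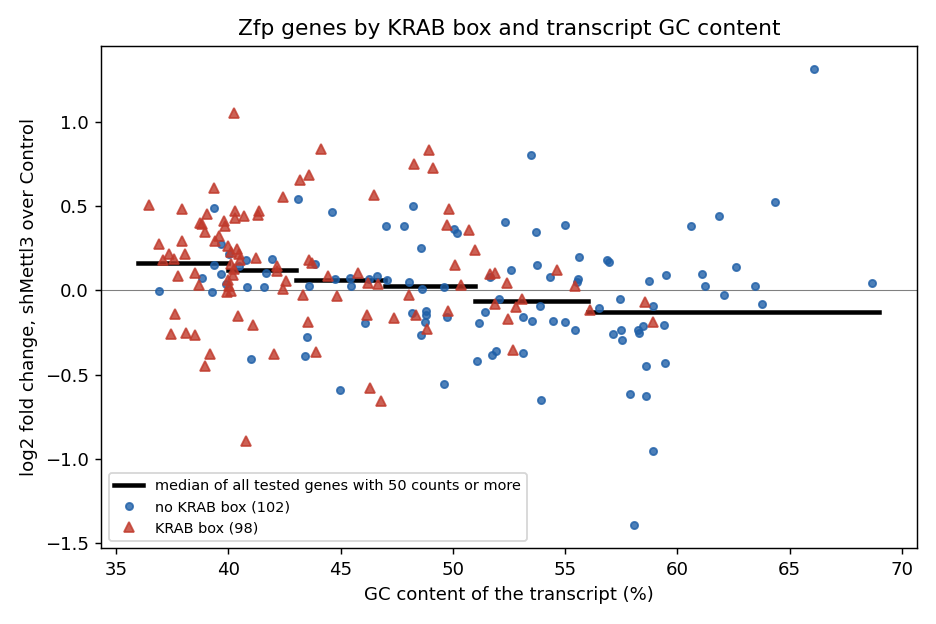
Transcript GC content (horizontal, percent) and log2 fold change of shMettl3 over Control (vertical), with a red triangle for each of the 98 Zfp genes with a KRAB box and a blue circle for each of the 102 without. Black bars give the median of all tested genes with at least 50 reads in each library within a GC range; they step down from 0.16 to -0.13, and the triangles lie mostly in the ranges of low GC.

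Many Zfp genes sit side by side. In gene order along the chromosomes, 41 pairs of members are direct neighbours, and 21 of these pairs, or 51.2%, moved in the same direction, against 58.8% of 5306 neighbouring pairs of tested genes at the floor. Both genes passed the test in 3 pairs of members, and the direction was shared in all 3. A gene can belong to a pair on either side, so these 3 pairs need not be separate cases. Among the neighbouring pairs of tested genes at the floor, both passed in 1073, and the direction was shared in 761 of these. Runs of at least 4 members no more than 10 genes apart numbered 12 and held 68 members, of which 12 rose and 1 fell, beside 21.4% and 22.3% of all tested genes. The longest, on chromosome 17 from Zfp160 to Zfp946, held 12 KRAB members, of which 10 had a value above 0 and 1, Zfp948, rose (log2 fold change 0.44). Its median was 0.25, and 0.05 with the GC trend removed, when Zfp948 was no longer called (adjusted p = 0.0536) and none of the run rose. On chromosome 7, the run from Zfp84 to Zfp146 held Zfp27, Zfp382 and Zfp568, which rose, next to 5 members that did not pass. Zfp580 closed another run on chromosome 7 in which the other 4 members ranged from -0.10 to 0.17 and none passed.

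The run on chromosome 9 had the most rises, and it is shown in full for that reason, chosen after the values were seen. Zfp560, described above, Zfp26, Zfp426, Zfp266 and Zfp846 follow each other, and each carries a KRAB box. Zfp26 was at 24.6 and 18.9 CPM in Control and 29.5 and 28.9 CPM in shMettl3, a log2 fold change of 0.43 (SE 0.12, adjusted p = 0.0161). Zfp426 was at 18.4 and 16 CPM against 25.3 and 29.8 CPM (0.68, SE 0.12, adjusted p = 0.00072), and Zfp266 at 18 and 15.8 CPM against 23 and 21.1 CPM (0.38, SE 0.11, adjusted p = 0.0153). In these 3 genes the knockdown libraries were above both controls. Without Control replicate 2 the adjusted p was 0.061 for Zfp26 and 0.0595 for Zfp266, and without shMettl3 replicate 1 it was 0.0661 and 0.124. Zfp846 was at 5.36 and 5.48 CPM against 5.77 and 5.98 CPM, with a log2 fold change of 0.12 (SE 0.16) that did not pass and counts that were not whole. The median of the 5 was 0.43, and 0.28 with the GC trend removed, when Zfp560, Zfp26 and Zfp426 still rose.

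The promoters of these 5 genes show how far the neighbours resemble each other. Each sequence below is from RefSeq on GRCm38.p6, from 250 bases before to 50 bases after the start of the gene, 5′ to 3′ on the strand of the gene. They are chr9:20385109-20385408 (minus strand, Zfp560), chr9:20460111-20460410 (minus, Zfp26), chr9:20492697-20492996 (minus, Zfp426), chr9:20521370-20521669 (minus, Zfp266) and chr9:20581078-20581377 (plus, Zfp846). Capitals mark 3 motifs on either strand: the GC box GGGCGG, the CCAAT box CCAAT, and the run GGAAGTG, which was chosen after these promoters had been read.
Zfp560: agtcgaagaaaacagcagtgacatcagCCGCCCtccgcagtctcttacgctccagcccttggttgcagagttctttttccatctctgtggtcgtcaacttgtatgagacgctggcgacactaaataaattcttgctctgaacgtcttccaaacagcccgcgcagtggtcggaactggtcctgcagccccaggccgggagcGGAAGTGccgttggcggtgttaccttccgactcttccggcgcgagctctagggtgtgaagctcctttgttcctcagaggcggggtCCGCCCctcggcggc
Zfp26: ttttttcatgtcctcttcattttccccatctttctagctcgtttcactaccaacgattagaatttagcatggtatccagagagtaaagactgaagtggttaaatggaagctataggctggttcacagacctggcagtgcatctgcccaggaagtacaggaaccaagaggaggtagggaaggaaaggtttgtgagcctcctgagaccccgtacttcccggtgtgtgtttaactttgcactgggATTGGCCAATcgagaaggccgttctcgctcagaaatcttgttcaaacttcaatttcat
Zfp426: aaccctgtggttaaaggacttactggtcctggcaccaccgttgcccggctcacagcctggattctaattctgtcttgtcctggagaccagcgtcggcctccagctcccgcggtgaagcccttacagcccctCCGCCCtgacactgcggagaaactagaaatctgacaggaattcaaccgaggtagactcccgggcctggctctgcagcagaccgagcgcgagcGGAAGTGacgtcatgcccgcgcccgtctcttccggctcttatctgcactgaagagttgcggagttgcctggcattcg
Zfp266: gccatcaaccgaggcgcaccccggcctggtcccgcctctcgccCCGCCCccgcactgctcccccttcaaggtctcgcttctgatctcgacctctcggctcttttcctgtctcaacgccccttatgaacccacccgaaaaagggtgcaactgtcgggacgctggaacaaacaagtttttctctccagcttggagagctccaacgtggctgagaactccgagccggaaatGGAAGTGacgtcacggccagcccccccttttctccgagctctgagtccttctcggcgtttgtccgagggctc
Zfp846: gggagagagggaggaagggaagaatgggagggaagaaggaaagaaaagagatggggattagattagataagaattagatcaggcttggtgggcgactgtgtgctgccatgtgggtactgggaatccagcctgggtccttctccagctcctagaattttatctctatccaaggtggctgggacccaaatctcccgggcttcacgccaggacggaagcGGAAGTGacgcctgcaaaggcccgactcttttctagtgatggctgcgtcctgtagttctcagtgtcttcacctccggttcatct
GGAAGTG occurs once in each promoter other than that of Zfp26, which holds 2 adjoining CCAAT boxes on opposite strands instead. The GC box occurs 2 times in the promoter of Zfp560, 1 time each in those of Zfp426 and Zfp266, and in neither of the other two. Zfp846, which did not pass, thus shares GGAAGTG with 3 genes that rose. These matches describe the letters and not a bound site.

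Over the members, 211 promoters of 168 genes could be matched. GGAAGTG was in 25.1% of them, against 15.5% of the promoters of all tested genes and 11% of all promoters in the reference. The GC box was in 49.8% of member promoters, against 62.6% for tested genes and 35.9% for all, and it was in 36.2% of those of KRAB members and 63.2% of the others. The CCAAT box was in 45.5% of member promoters, 38.4% of those of tested genes and 37.4% of all. A member promoter had a median of 17 CpG dinucleotides, against 21 for tested genes, and the medians were 12 for KRAB members and 22 for the others.

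**Figure D4:**
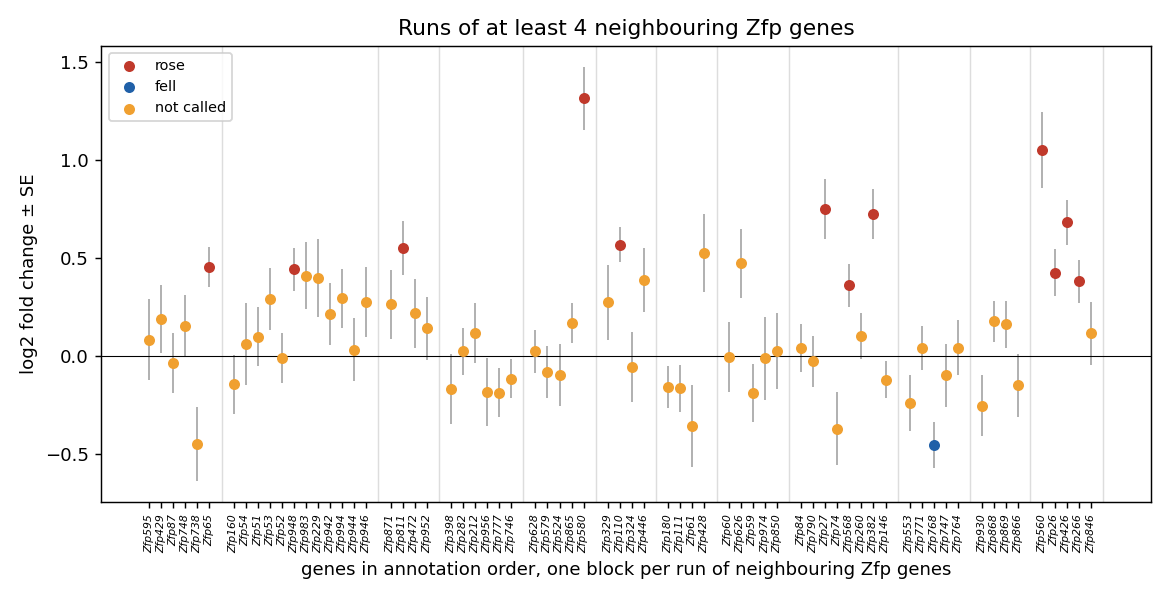
Log2 fold change of shMettl3 over Control (vertical, with 1 SE either way) for the 68 Zfp genes that lie in 12 runs of at least 4, in gene order; colour gives the call and thin lines part the runs. The last block is the run on chromosome 9, with 4 of 5 genes called as risen; in each of the other 11 blocks at most 3 genes were called.

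The transcripts of the members share a layout. They had a median of 5 exons, against 9 over all tested genes, and a median last exon of 2544 bases against 1229 bases, as is typical for finger genes, whose fingers are encoded in one long final exon. GGACT, the most common sequence in which Mettl3 methylates adenosine, occurred 0.85 times per kilobase in the members' transcripts and 1.05 times per kilobase over all tested genes (medians). At least 1 GGACT was present in 91% of members and 91.5% of all tested genes. KRAB members had 0.89 and the other members 0.82 GGACT per kilobase. No measure of methylation was analysed here.

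Most partners through which KRAB proteins silence genes did not pass the test, and more of those that passed fell than rose. Of 34 listed co-repressor and chromatin genes, 33 were tested, and 10 fell and 1 rose, with a median log2 fold change of -0.08, beside 22.3% and 21.4% of all tested genes. In either direction 33.3% of the list passed, against 43.7% of all tested genes. The other 22 did not pass, and 15 of the 33 values were above 0. Setdb1, which writes the repressive H3 lysine 9 mark, was at 86.4 and 77.9 CPM in Control and 54.4 and 59 CPM in shMettl3, a log2 fold change of -0.53 (SE 0.08, adjusted p = 0.000332). Its partner Atf7ip had -0.38 (SE 0.11, adjusted p = 0.0157), and Mta1 of the NuRD complex had -0.46 (SE 0.07, adjusted p = 0.000533). Trim28, the bridge between KRAB proteins and these enzymes, was at 203 and 222 CPM against 178 and 188 CPM. It had a log2 difference of -0.22 (SE 0.08, adjusted p = 0.0396), and the call was lost in 14 of 20 other settings, among them the removal of the GC trend and scaling by library size. Suv39h1, another H3 lysine 9 methyltransferase, was the 1 gene that rose (0.26, adjusted p = 0.0466), a call lost in 8 of 20 other settings. Without Control replicate 1 the adjusted p was 0.0625 for Atf7ip and 0.131 for Suv39h1, and without shMettl3 replicate 1 it was 0.0912 and 0.133. Without shMettl3 replicate 2 it was 0.256 for Suv39h1. For Trim28 it was 0.0901 without Control replicate 2, 0.338 without shMettl3 replicate 1 and 0.131 without shMettl3 replicate 2. When either shMettl3 replicate was left out, fewer of these genes fell than in the main fit, and so did fewer of all tested genes. Each of these fits rests on a lone knockdown library. Under scaling by library size alone, 5 genes of the list rose and 6 fell, beside 29.6% and 16.6% of all tested genes.

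**Figure D5:**
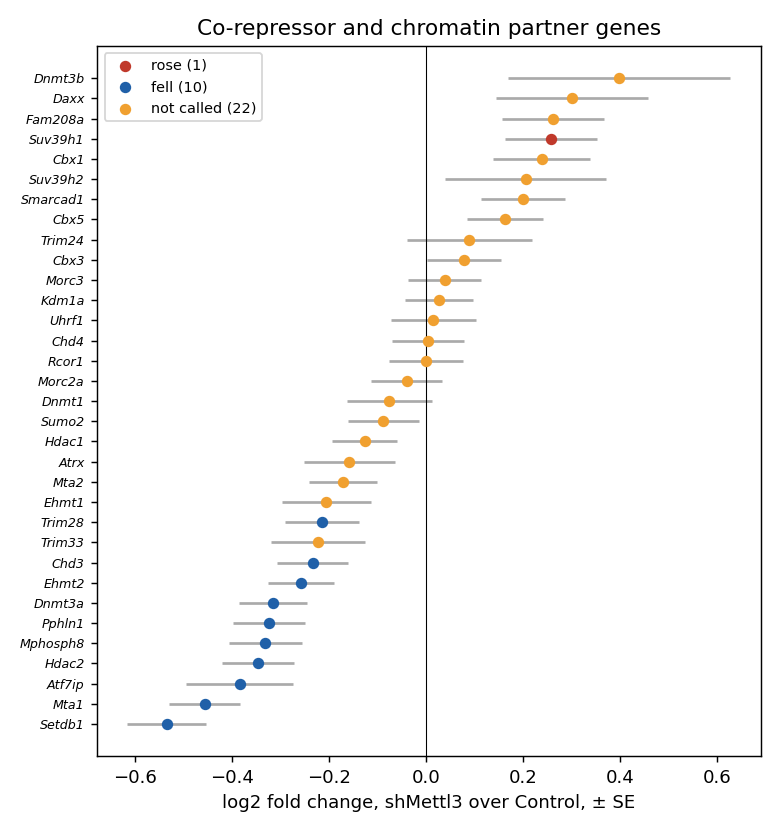
Log2 fold change of shMettl3 over Control (horizontal, with 1 SE either way) for the 33 tested co-repressor and chromatin genes, ordered by value; colour gives the call. The 10 genes that fell run from Setdb1 (-0.53) to Trim28 (-0.22), and Suv39h1 (0.26) is the 1 that rose.

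Among genes of imprinted loci, where Zfp445 is known to act, 12 of 37 listed were tested, and 1 rose and 3 fell, or 33.3% against 43.7% of all tested genes. Commd1 had a log2 fold change of 0.35, and H13, Igf2r and Inpp5f had -0.41, -0.31 and -0.34. The calls of Igf2r and Inpp5f were lost without either shMettl3 library (adjusted p from 0.0538 to 0.15), that of Inpp5f also without Control replicate 2 (0.0884), and that of Commd1 without shMettl3 replicate 2 (0.0911). Finger genes under other names were counted in the same way. Of 31 Zbtb genes at the same floor, which encode BTB domain finger proteins, 4 rose and 4 fell, with a median of -0.04, and the share called was 25.8% against 43.6% of tested genes at that floor. The 3 largest Zbtb rises were those of Zbtb44 (0.62), Zbtb41 (0.50) and Zbtb32 (0.46), and the 3 largest falls those of Zbtb4 (-0.80), Zbtb42 (-0.51) and Zbtb18 (-0.42). Of 13 Zkscan and Zscan genes, Zkscan17 rose (0.62) and Zkscan6 fell (-0.45), or 15.4% against the same 43.6%. The adjusted p of Zkscan6 was 0.0503 without shMettl3 replicate 1. The call of Zbtb42 was lost in 13 of 20 other settings, among them the fits without Control replicate 2 (adjusted p = 0.11), shMettl3 replicate 1 (0.0578) or shMettl3 replicate 2 (0.257). Fewer Zbtb genes, and fewer of all tested genes, fell in the fits that left out either shMettl3 library than in the main fit.

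At the floor itself, the members with the lowest counts were Zfp691 and Zfp81, each with 50 reads in its lowest library, and then Zfp229, Zfp41 and Zfp651 with 51. The log2 fold change was -0.26 for Zfp81 (SE 0.22) and 0.40 for Zfp229 (SE 0.20), neither called. Just below it lay Zfp113 with 49.01 reads in its lowest library, Zfp943 with 48 and Zfp566 with 46, with log2 fold changes of 0.16, 0.05 and 0.16, none called. Of the 129 Zfp genes below the floor, 87 had enough reads to be tested, and 10 rose and 9 fell, or 21.8% against 43.7% of all tested genes. Some had larger changes than any member, and those named next were picked after their values were seen. Zfp697 had 138 and 134 reads in Control and 26 and 24 in shMettl3, a log2 fold change of -2.48 (SE 0.20, adjusted p = 3.95e-06). Zfp358 had 128 and 141 reads against 28 and 23, a log2 fold change of -2.44 (SE 0.21, adjusted p = 6.19e-06). Both fell further than Zfp651, and neither is a member because its shMettl3 counts lie below 50. The largest rise below the floor was that of Zfp345, a KRAB gene whose counts were not whole. It had 10 and 10.72 reads in Control and 56.94 and 59 in shMettl3 (2.41, SE 0.29, adjusted p = 6.71e-05). Zfp467 rose from 24 and 26 reads to 97 and 113 (2.02, SE 0.22, adjusted p = 2.97e-05), and Zfp575 rose by 1.90 on the log2 scale.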

How the data were processed

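Polyadenylated RNA was amplified, sequenced as single reads of 50 bases and counted per gene, per the labels' protocols. The submitters' processing notes name RSEM 1.2.12, Bowtie2 2.2.5, HISAT2 2.0.4 and the build mm9. Per the file headers, the authors deposited for each library an estimated count per gene together with its FPKM and TPM. Whether the counting used strand is not given in the sources used here, so a gene and an overlapping or antisense neighbour may share reads.

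Estimated counts were rounded and tested with edgeR 4.0.16 in R 4.3.3 on the whole table (TMM scaling, filterByExpr with a minimum count of 10 and a minimum total of 15, robust quasi-likelihood test, Benjamini-Hochberg adjustment, called below 0.05). Of 14435 genes, 11035 were tested. CPM uses TMM-scaled library sizes; a log2 fold change is shMettl3 over Control; its SE is the fold change over the square root of F. DESeq2 1.42.0, limma 3.58.1 on counts and on the deposited log2(FPKM) and log2(TPM) values with pseudocounts of 0.1 or 1, other scalings, filters and floors, a replicate block, a GC correction and leaving out each library were the alternatives. The fit was tested on simulated data.

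The members and lists were chosen with earlier results of these data known. The genes named are Mettl3, the 12 largest rises and falls among called members whose groups do not overlap, the 5 highest by TPM, the 3 nearest either side of the floor, members with textbook roles, and of each other list Trim28, Setdb1 and the 3 largest called changes each way; names outside this are stated as such. The ranges of count and GC content, the run length and gap and the promoter motifs were set with values in view. Transcript features and KRAB boxes come from GENCODE M21 (GRCm38), the longest coding sequence of each gene, all 200 members matched; fingers were counted as C2H2 patterns. The KRAB class was first set by a fixed pattern (63 members) and, after its counts were seen, by a pyhmmer 0.12.3 profile built from 149 matches to that pattern (E below 0.001, 98 members), since the pattern missed known KRAB proteins. The GC correction is a loess, on transcript GC with a span of 0.5, of each library's deviation from the gene's mean log CPM. Its first form was not centred, used library sizes without TMM and an ordinary loess, and shifted all genes by -0.10. After its result was seen it was replaced by centred offsets from TMM-scaled values and a robust loess. Values of both first forms are given with the alternatives. Gene order comes from RefSeq genes on GRCm38.p6. One gene of the co-repressor list is not reported here and is left out of its counts.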

Additional observations from a re-analysis of the deposited data

How the results depend on the processing

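Leaving out a library, with the lone library of its group taken to vary like the others, gave 20 to 41 members that rose and 11 to 24 that fell, and a median log2 fold change of 0.01 to 0.08. KRAB members that rose ranged from 11 to 27 and those that fell from 2 to 6; other members ranged from 9 to 14 risen and 9 to 20 fallen. The control replicates 1 and 2 differ more from each other (chi-square over its degrees of freedom 11.5) than the knockdown replicates (4.15).

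Against 32 members that rose and 21 that fell, scaling by library size gave 50 risen and a median of 0.15, with 23 non-KRAB rises against 13. DESeq2 gave 21 risen, 11 of them with a KRAB box, and 2 KRAB members that fell. The test against 1.5-fold gave 1 risen and 1 fallen, both without a KRAB box (0 and 0 with one). limma on log2(FPKM + 0.1) or log2(FPKM + 1) gave 12 fallen, 11 of them without and 1 with a KRAB box, and medians of 0.15 and 0.12. On log2(TPM + 0.1) 9 fell (8 without, 1 with a KRAB box), the median was 0.20 and 21 non-KRAB members rose; on log2(TPM + 1) 49 rose, 21 of them non-KRAB, 10 fell (9 and 1), and the median was 0.18. All genes shifted too: 64.1%, 63.2% and 70.1% of all calls were rises by library size, FPKM and TPM (0.1), against 48.9%. A floor of 200 reads left 18 risen (8 with a KRAB box) and 9 fallen (9 without, 0 with). Removing the GC trend put the median at 0.00 (also with the replicate block), with 21 non-KRAB rises in both fits and 9 KRAB falls, or 10 with the block. In 2 forms replaced after their counts were seen, the KRAB pattern alone gave 15 rises and 1 fall in 63 members, and GC offsets that were not centred gave 22 rises, 42 falls (16 with a KRAB box, 26 without), 9 KRAB rises and a median of -0.11. The replicate block gave 36 risen and 21 fallen; same-numbered libraries correlated at 0.15, and 2 pairs are too few to show whether the numbers pair them.

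Of named genes, only ones that were not called changed sign. Zfp91 went to -0.01 with no filter, -0.03 with the GC trend removed with or without the block, -0.12 uncentred, -0.05 without Control replicate 2 and -0.00 without shMettl3 replicate 1. With the GC trend removed, with or without the block, Zfp330 had -0.00, Zfp943 -0.15, Zfp143 -0.02, Zfp148 -0.12 and Zfp451 -0.05. With uncentred offsets these had -0.10, -0.29, -0.12, -0.24 and -0.15, and Zfp113 had -0.04, Zfp809 -0.06 and Zfp410 -0.09. Without Control replicate 1, Zfp445 had 0.07 and Zfp410 -0.04. Without Control replicate 2, Zfp943 had -0.09, Zfp566 -0.10, Zfp148 -0.09 and Zfp451 -0.03. Without shMettl3 replicate 1, Zfp566 had -0.23 and Zfp143 -0.07, and without shMettl3 replicate 2, Zfp943 had -0.07, Zfp445 0.01, Zfp451 -0.03 and Zfp410 -0.06. Zfp445 had 0.07 by library size, 0.07 and 0.06 on FPKM and 0.12 and 0.11 on TPM, where Zfp407 had 0.03 and 0.02 (pseudocounts 0.1 and 1). Over the fits without 1 library, Zfp91 ran from -0.05 to 0.05, Zfp566 from -0.23 to 0.47, Zfp445 from -0.13 to 0.07, Zfp143 from -0.07 to 0.19 and Zfp148 from -0.09 to 0.16. The cause of these differences was not tested.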
